A study of Mus musculus with 4 samples.

Results

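The subunits of the fast transmitter channels gated by GABA, glycine and glutamate were followed across mouse teratomas and embryoid bodies that lack or carry Snai1, a zinc-finger protein known to repress epithelial genes. The rule names 40 genes by symbol: the GABA-A receptor subunits, the glycine receptor subunits, and the AMPA, kainate and NMDA classes of glutamate receptor subunits. A probe set that names a single gene was found for 35 of them, among 18193 genes read in this way. The remaining 5 were not analysed here. The rule itself uses no measured value, but the members were chosen with earlier results of these data known.

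There were 4 groups with 1 array each. Snai1 knockout teratomas and control teratomas, whose genotype is labelled F/F, grew for 6 weeks under the skin of the hind limbs of male nude mice that were 6 weeks old. Nude mice lack mature T cells but keep B cells and myeloid cells, so a tumour's RNA can hold host transcripts. Snai1 knockout and control (F/F) embryoid bodies, aggregates of embryonic stem cells that differentiate without direction, were taken on day 5 of culture. The labels do not say how Snai1 was deleted, whether a line is a single clone, or whether RNA came from 1 tumour or several. Each group being a single array, nothing could be tested, and every difference describes the arrays compared.

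GABA-A and glycine receptors are pentamers that pass chloride and usually inhibit mature neurons, although they can depolarise immature ones. AMPA, kainate and NMDA receptors are tetramers that pass cations and excite. Each is assembled from several subunits whose mixture changes as neurons mature, and glia and some epithelia also express particular members.

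Values are log2 expression from the RMA method, so a difference of 1 is 2-fold. RMA values have no true zero, so the middle value of all non-control probe sets on an array served as its floor. It stood at 5.04 on the knockout teratoma array, 5.08 on the control teratoma array, 4.73 on the knockout embryoid body array and 4.71 on the control embryoid body array. Lower values were raised to the floor before subtraction, a difference with 1 such array is a bound ("at least"), and no difference is given where both arrays lay below. Different probe sets have different brightness, so levels are compared between arrays and not between genes.

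The arrays of one tissue correlated at 0.985 for teratomas and 0.982 for embryoid bodies across probe sets. Snai1 itself read 3.45 in knockout embryoid bodies, below the floor, against 4.78 in control embryoid bodies, and 3.44 in the knockout teratoma, against 3.59 in the control teratoma, both below it. The 3' minus 5' signal of Gapdh, a sign of RNA integrity, was 0.40 in the knockout teratoma and 0.65 in the control teratoma. The labels were set against lists of cell type markers. All 14 neuronal and all 6 skeletal muscle markers stood above the floor in both teratomas, and all 6 markers of pluripotent cells did so in both embryoid bodies. None of these lists is exclusive to a tissue, and 64.87% to 65.68% of all genes lay above the floor on the 4 arrays. Of the skeletal muscle markers, 3 of 6 stood above it in both embryoid bodies. The pluripotent markers also stood above the floor in teratomas, 6 of 6 in the knockout and 5 of 6 in the control, and the neuronal markers in embryoid bodies, 8 of 14 in the knockout and 9 of 14 in the control.

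Channel subunits were detected mainly in teratomas. Above the floor were 23 of 35 members in the knockout teratoma and 22 in the control teratoma, against 5 in knockout embryoid bodies and 7 in control embryoid bodies. Over all 18193 genes, 65.35% lay above the floor in the knockout teratoma and 65.04% in the control teratoma. In knockout and control embryoid bodies these shares were 64.87% and 65.68%. The members were thus near the share over all genes in teratomas and well short of it in embryoid bodies. The 5 members above the floor on all 4 arrays were Gabrp, Gria3, Gria4, Grik5 and Grin2d. A further 11 lay below it on every array. These were Gabra6, the subunit of cerebellar granule cells, Gabrd, which serves tonic inhibition, the retinal rho subunits Gabrr1 and Gabrr2, Gabre and Gabrq, the glycine receptor genes Glra1 and Glra4, and the NMDA receptor genes Grin2a, Grin2c and Grin3b. Their values ran from 2.93 to 4.65 over all arrays. Of 6 retina markers, 0 were above the floor on any array.

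**Figure D1:**
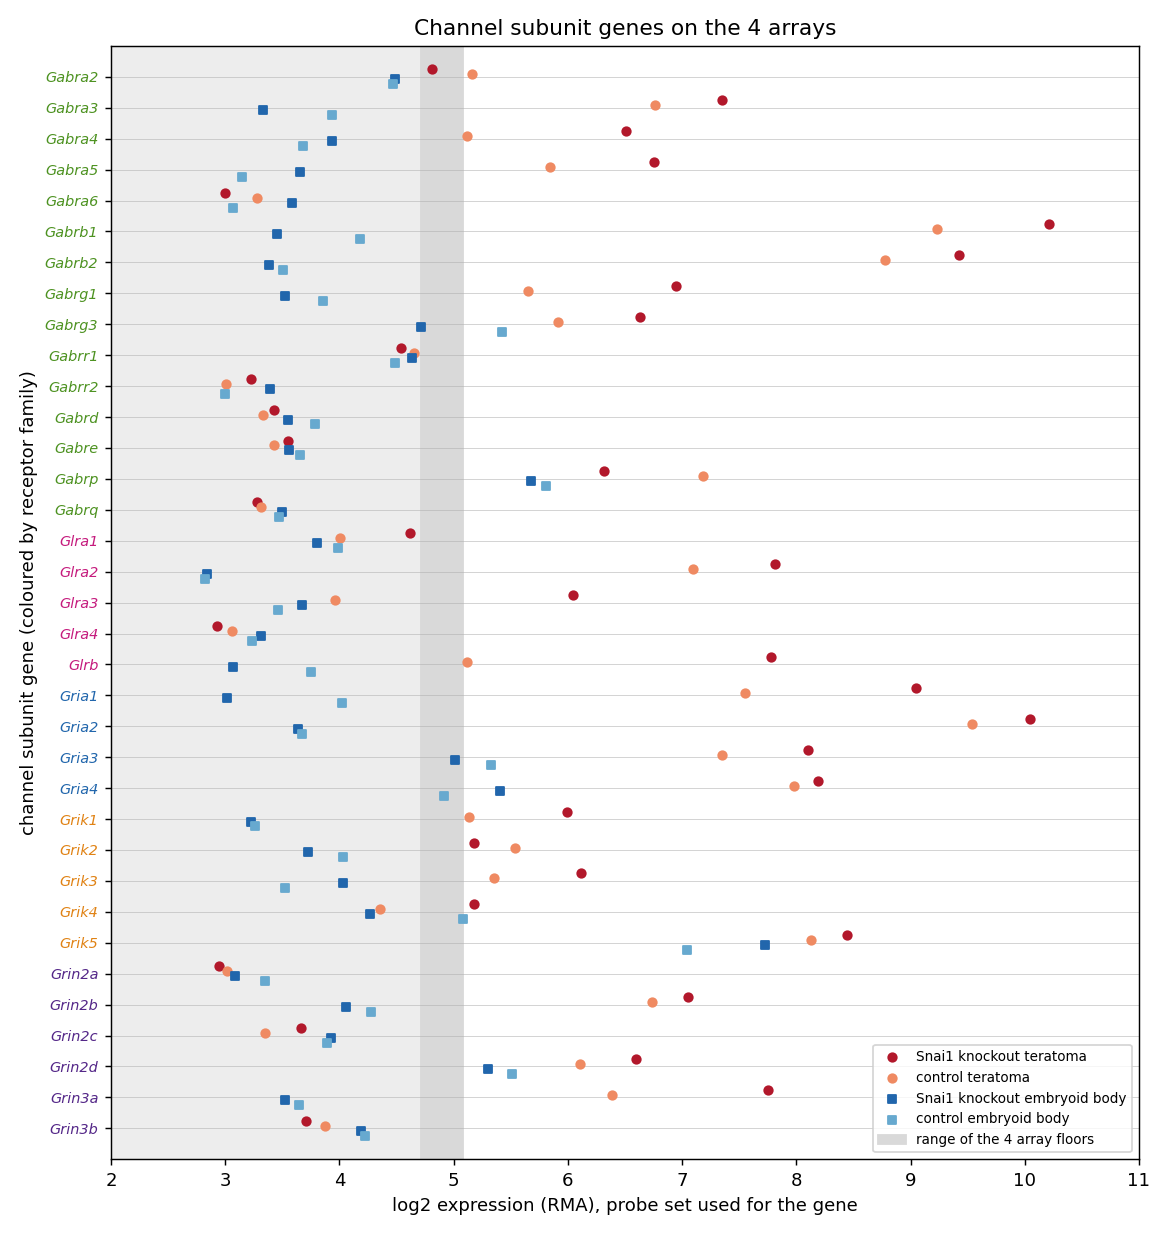
Log2 expression (x axis) of the 35 channel subunit genes (y axis, coloured by family: GABA-A green, glycine pink, AMPA blue, kainate orange, NMDA purple), with 1 point per array and the floors shaded. The teratoma points (circles) lie to the right of the embryoid body points (squares) for most genes above the floors, and 11 genes stay below on all arrays.

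The comparison of knockout with control teratomas asks how these channels differ in tumours that lack Snai1. Of 24 members measured, 5 were at least 2-fold higher in the knockout teratoma and 0 were at least 2-fold lower, with a median difference of 0.72. Among all 12197 genes measured, 3.25% were at least 2-fold higher, 1.07% at least 2-fold lower, and the median was 0.06. The share of members higher was 20.8%, and 21 of the 24 (87.5%) lay above 0, as did 57.6% of all genes measured. For 3 of the 24, Glra3, Grik4 and Gabra2, the difference is a bound whose sign was set by the single array above the floor. The 5 at least 2-fold higher were Glrb, Gria1, Gabra4, Grin3a and Gabrg1, from all families but the kainate class. Their number was 3 with the floor at the 65th percentile and 2, Glrb and Gria1, with the mean of each gene's probe sets. Of all genes measured, 2.69% and 2.41% were higher in these settings. Under quantile normalization the split over all genes was 374 higher and 206 lower, against 397 and 131 without it, and the members gave 6 higher and 1 lower. Tumours are mixtures, and in bulk RNA more cells of a type and more RNA per cell cannot be told apart.

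Promoter sequence is shown for the 2-fold higher members that the RefSeq promoter table holds, and for Gabrb1, whose start site lies 388 bases from that of Gabra4 on the opposite strand. Each is the 250 bases before the start in GRCm38.p6, on the strand of the gene. Capitals mark GGACAG or its reverse complement CTGTCC, the right arm of the RE1 element. RE1 is bound by REST, a repressor of neuronal genes in other cells.
Glrb (chr3:80913661-80913910, minus strand): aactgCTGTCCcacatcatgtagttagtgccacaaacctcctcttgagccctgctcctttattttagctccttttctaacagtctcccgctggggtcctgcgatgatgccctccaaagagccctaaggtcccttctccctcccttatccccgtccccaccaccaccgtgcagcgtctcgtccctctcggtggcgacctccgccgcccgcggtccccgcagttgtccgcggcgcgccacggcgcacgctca
Gabrg1 (chr5:70842618-70842867, minus strand): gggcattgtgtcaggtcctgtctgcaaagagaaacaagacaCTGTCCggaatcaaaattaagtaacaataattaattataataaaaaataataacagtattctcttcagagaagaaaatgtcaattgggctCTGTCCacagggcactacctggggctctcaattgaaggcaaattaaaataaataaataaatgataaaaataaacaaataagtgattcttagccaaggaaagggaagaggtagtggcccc
Gabra4 (chr5:71658309-71658558, minus strand): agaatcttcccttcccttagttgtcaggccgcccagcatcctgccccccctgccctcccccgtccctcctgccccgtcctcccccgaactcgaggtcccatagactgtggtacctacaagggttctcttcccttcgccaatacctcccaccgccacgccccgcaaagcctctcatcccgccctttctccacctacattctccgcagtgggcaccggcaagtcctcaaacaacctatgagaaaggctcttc
Gabrb1 (chr5:71657671-71657920, plus strand): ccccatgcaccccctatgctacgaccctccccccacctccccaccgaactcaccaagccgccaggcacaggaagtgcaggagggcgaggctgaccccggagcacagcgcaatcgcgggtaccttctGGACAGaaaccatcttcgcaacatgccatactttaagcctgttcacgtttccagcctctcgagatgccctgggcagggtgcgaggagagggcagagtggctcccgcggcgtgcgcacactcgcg
The motif occurs in the Glrb, Gabrg1 and Gabrb1 windows, and the Gabra4 window holds none of the 3 motifs searched. The table held 31 windows for 27 of the members. GGACAG, on either strand, was in 13 of the 31 member windows (41.9%) and in 18.7% of all 32851 windows. The 13 were those of Gabra5, Gabrb1 (both windows), Gabrb2, Gabrg1, Gabrr2, Glra2, Glra3, Glra4, Glrb, Gria2, Grin2d and Grin3b. Of these genes, Glrb and Gabrg1 were at least 2-fold higher in the knockout teratoma, while Gabrr2, Glra4 and Grin3b lay below the floor on all arrays. The left arm, CAGCACC, was in 1 member window (3.23%) and in 5.73% of all. CAGGTG, the E-box that Snail proteins bind, was in 6 member windows (19.4%) and in 17.2% of all. The 6 were those of Gabra2, Gabrb2, Gabre, Gabrq, Gabrr2 and Grik3. Between knockout and control teratomas, Gabre, Gabrq and Gabrr2 have no difference, since both arrays lay below the floor, and Gabra2 has a bound. Gabrb2 and Grik3 differed by 0.64 and 0.75. A link between any of these motifs and the differences was not tested. Member windows had a median GC content of 56.4%, against 52.4% for all windows. Short matches describe the letters and are no evidence of binding.

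Among the members, the glycine receptor gene Glrb gave the largest difference. Glrb encodes the beta subunit, which ties the receptor to the scaffold protein gephyrin. It read 7.77 in the knockout teratoma, against 5.12 in the control teratoma, and 3.06 in knockout embryoid bodies, against 3.75 in control embryoid bodies. The knockout teratoma alone stood well above the floor, the control teratoma lay just above it, and both embryoid bodies lay below. That is 6.29-fold higher in the knockout teratoma, a log2 difference of 2.65. The other Glrb probe set, whose suffix marks shared sequence, read 7.09 in the knockout teratoma and 6.45 in the control teratoma, a difference of 0.65, so the 2-fold call rests on 1 of 2 probe sets. Glra2, the alpha subunit typical of immature neurons, read 7.81 in the knockout teratoma and 7.09 in the control teratoma, a difference of 0.72. Glra3, an alpha subunit known from pain circuits of the spinal cord, read 6.04 in the knockout teratoma, against 3.96 in the control teratoma, which lay below the floor. It was at least 1.95-fold higher, just short of the 2-fold line. In embryoid bodies Glra2 and Glra3 lay below the floor with and without Snai1.

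Among the GABA-A subunits, 2 of 9 measured were at least 2-fold higher in the knockout teratoma, and the median difference was 0.72. Gabra4, an alpha subunit often found outside synapses, read 6.51 in the knockout teratoma, against 5.12 in the control teratoma, and 3.93 in knockout embryoid bodies, against 3.68 in control embryoid bodies. Gabrg1, a gamma subunit, read 6.95 in the knockout teratoma, against 5.65 in the control teratoma, and 3.52 in knockout embryoid bodies, against 3.86 in control embryoid bodies. Both were above the floor in both teratomas and in neither embryoid body, and the knockout tumour was 2.62-fold higher for Gabra4 and 2.46-fold higher for Gabrg1. Each has 1 other probe set, which lay below the floor on all arrays. With the mean of its probe sets, neither reached 2-fold.

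Of the beta subunits, which most GABA-A receptors need, Gabrb1 stood just short of the line. Gabrb1 read 10.21 in the knockout teratoma, against 9.23 in the control teratoma, and 3.45 in knockout embryoid bodies, against 4.18 in control embryoid bodies. It was 1.98-fold higher in the knockout teratoma, and its other measured probe sets differed by 1.23 and at least 0.48. Gabrb2 read 9.42 in the knockout teratoma and 8.78 in the control teratoma, a difference of 0.64, and its 3 other measured probe sets differed by 0.72 to 1.08. The alpha subunit genes Gabra5, known from extrasynaptic receptors of the hippocampus, and Gabra3, prominent before birth, differed by 0.91 and 0.58. Gabrg3 differed by 0.72. Gabra2 lay above the floor only in the control teratoma, at 5.16, against 4.81 in the knockout teratoma.

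Gabrp went the other way. It encodes the pi subunit, which is known from epithelia such as uterus and mammary gland rather than from neurons. It read 6.32 in the knockout teratoma, against 7.18 in the control teratoma, and 5.68 in knockout embryoid bodies, against 5.81 in control embryoid bodies. The knockout teratoma was lower by a log2 difference of -0.86, and the second probe set differed by -1.19, which is past 2-fold. Beside it, 5 of 7 markers of simple epithelium lay below 0 in teratomas. Their median was -0.37, and the keratin gene Krt8 was the 1 called, at -1.02. The unlogged levels of the epithelial list were also summed, with values below the floor raised to it. The log2 of that sum was 11.78 in the knockout teratoma and 12.28 in the control teratoma. Such a sum is weighted towards the brightest probe sets. In embryoid bodies the same list stood the other way, with 6 of 7 above 0, a median of 0.86 and Cldn4 (1.92) and Elf3 (1.33) called higher in the knockout, while Gabrp differed by -0.13. The part of epithelial cells in the Gabrp difference was not tested.

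All 4 AMPA receptor genes lay above 0, with a median of 0.63. Gria1, a subunit central to synaptic strengthening, read 9.05 in the knockout teratoma, against 7.55 in the control teratoma, and 3.02 in knockout embryoid bodies, against 4.02 in control embryoid bodies. The knockout teratoma was 2.82-fold higher, and the second Gria1 probe set gave nearly the same log2 difference, 1.48. Gria2, whose edited product limits calcium entry, read 10.05 in the knockout teratoma and 9.54 in the control teratoma, a difference of 0.51. Gria3 differed by 0.75 and Gria4 by 0.20. Gria4 is less settled than these values show, since another of its probe sets lay above the floor only in the knockout teratoma and differed by at least 1.08.

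None of the 5 kainate receptor genes reached 2-fold in teratomas, and their median was 0.31. Grik1 and Grik3, which can form channels alone, differed by 0.86 and 0.75. Grik5, a high-affinity subunit that needs such partners, read 8.44 in the knockout teratoma and 8.13 in the control teratoma. Grik4, of the same type, read 5.18 in the knockout teratoma, just above the floor, against 4.36 in the control teratoma, below it. Probe sets of Grik2 disagreed in sign: the one used read 5.18 in the knockout teratoma and 5.54 in the control teratoma, and the other read 5.83 and, below the floor, 4.81. Their differences were -0.36 and at least 0.75. Of the NMDA receptor genes, Grin3a, a subunit that lowers calcium flow and is known from the young brain, was 2.59-fold higher. It read 7.76 in the knockout teratoma, against 6.38 in the control teratoma, and 3.52 in knockout embryoid bodies, against 3.64 in control embryoid bodies. The second measured Grin3a probe set differed by 0.77, on the same side of 0. Grin2d and Grin2b, the glutamate-binding subunits typical of embryonic brain, differed by 0.50 and 0.31.

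**Figure D2:**
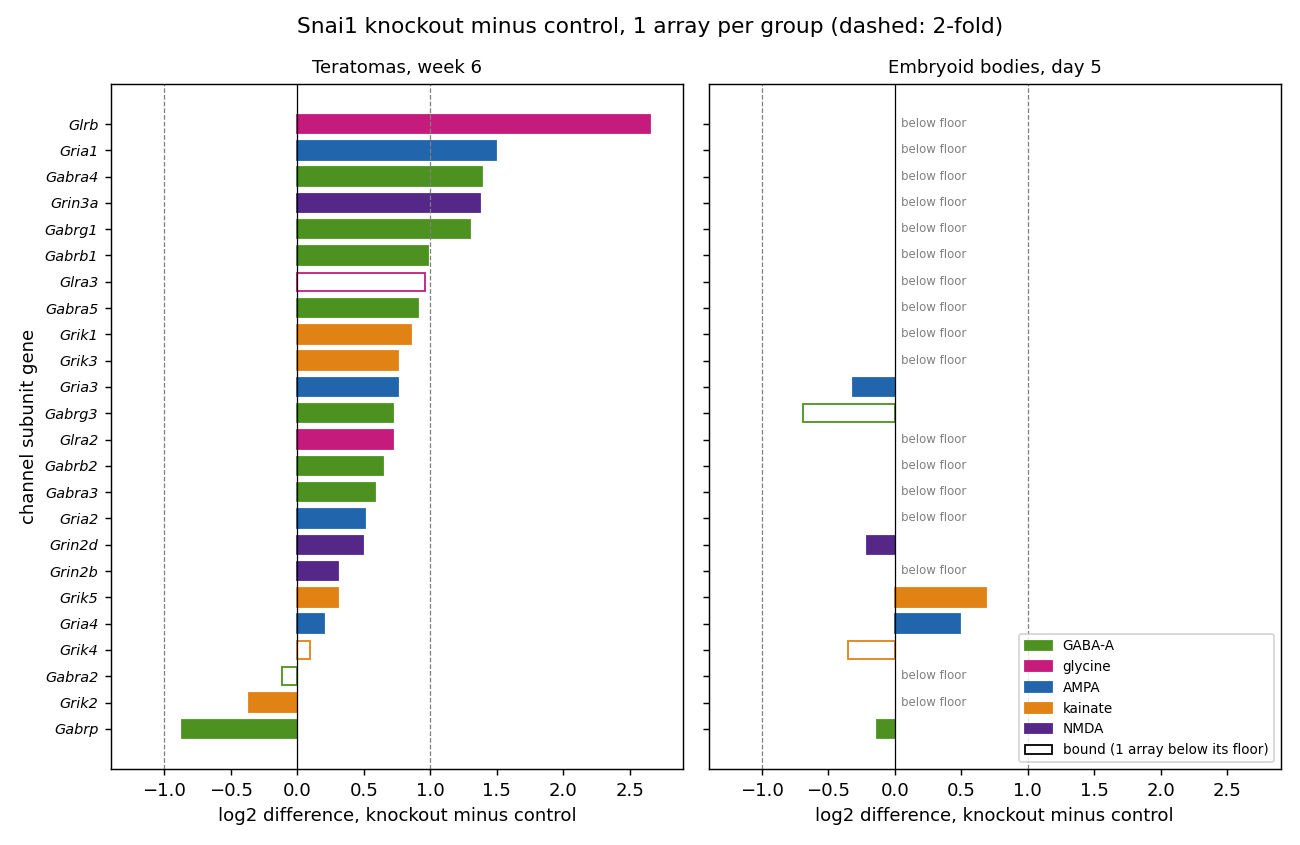
Log2 difference, Snai1 knockout minus control (x axis), for the 24 members measured in teratomas (left) and for the same genes in embryoid bodies (right), coloured by family, with bounds as open bars and 2-fold as dashed lines. In teratomas 21 bars lie above 0 and 5 pass the 2-fold line, while in embryoid bodies most genes lay below the floor and none passes it.

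The only internal measure of error was the disagreement between probe sets of a gene, which share RNA and array and leave out variation between tumours. Its pooled SD was 0.50 in teratomas over the 11 members with several measured probe sets. Of the 5 members at least 2-fold higher, Gabra4 and Gabrg1 had no second measured probe set, and for Glrb, Gria1 and Grin3a the second had the same sign. The Glrb probe sets, at 2.65 and 0.65, were far apart.

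**Figure D3:**
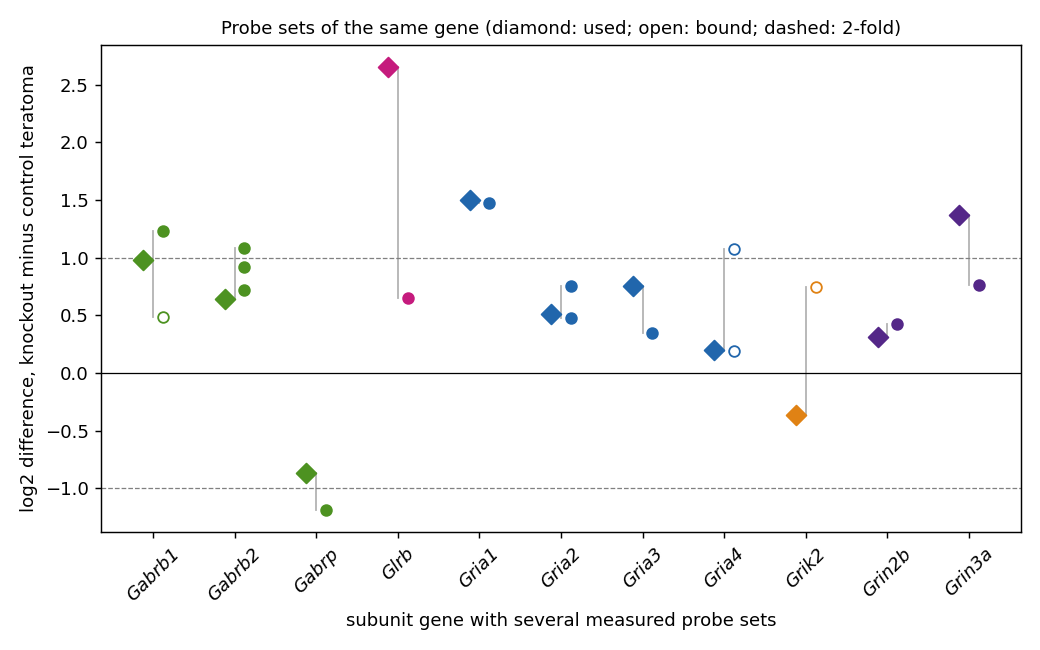
Log2 difference, knockout minus control teratoma (y axis), for every measured probe set of the 11 subunit genes with several (x axis), where diamonds are the probe sets used, open symbols are bounds and dashed lines mark 2-fold. The Gria1 probe sets coincide near 1.5, those of Glrb spread from 0.65 to 2.65, and those of Grik2 fall on both sides of 0.

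In embryoid bodies 7 members were measured. None was at least 2-fold higher or lower in the knockout, where 2.18% of the 12282 genes measured were higher and 3.98% were lower. The median of the 7 was -0.21, against 0.03 for all genes measured. Grik5 read 7.73 in knockout embryoid bodies, against 7.05 in control embryoid bodies, a difference of 0.68. Gria4 read 5.41 in knockout embryoid bodies and 4.91 in control embryoid bodies, a difference of 0.49. These were the 2 members above 0. Gabrg3 was above the floor only in control embryoid bodies, at 5.42 against 4.72 in knockout embryoid bodies, which gives a bound of -0.69. Gria3, Grin2d and Gabrp differed by -0.31, -0.21 and -0.13, and Grik4 was above the floor only in control embryoid bodies, with a bound of -0.35. With so few members above the floor, a difference in the other 28 was not detectable on these arrays.

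The last question was how the members change between day 5 embryoid bodies and week 6 teratomas. In knockout cells 19 of 23 measured members were at least 2-fold higher in the teratoma and 0 lower, where 19.8% of 12936 genes were higher and 19.8% lower. In control cells 13 of 23 were at least 2-fold higher in the teratoma and 0 lower, where 16.2% of 12956 genes were higher and 19.0% lower. Most members entered these counts only because the teratoma value was above the floor (18 of 23 differences were bounds in knockout cells and 17 of 23 in control cells), so their direction was largely set by that filter. When each array was centred on its median, the split over all genes was 2036 higher and 3786 lower in knockout cells, against 2566 and 2564 without centring. In control cells it was 1533 and 4100, against 2098 and 2456. The members then gave 17 higher in knockout cells and 11 in control cells, and 0 lower in either. Centring moved the median of all genes to -0.46 in knockout cells, against -0.15 without it, and to -0.55 in control cells, against -0.18. Neuronal markers were at least 2-fold higher in the teratoma for 14 of 14 in both genotypes (medians 5.27 in knockout and 4.91 in control cells), and astrocyte markers for 6 of 7. The 3' minus 5' signal of Actb was 0.85 in the knockout teratoma against 0.31 in knockout embryoid bodies, and 1.03 in the control teratoma against 0.38 in control embryoid bodies. That of Gapdh was 0.40 against 0.10 and 0.65 against 0.17. Tissue, time, host, RNA integrity and RNA extraction (columns for embryoid bodies, Trizol for teratomas) cannot be told apart here.

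The AMPA receptor genes were the family in which all measured members passed 2-fold in both genotypes with the probe sets used. With the mean of probe sets, the log2 difference of Gria4 was 0.88 in control cells, short of 2-fold, and 1.81 in knockout cells. Gria2 was at least 39.8-fold higher in the teratoma in knockout cells and at least 28.4-fold in control cells. That probe set carries a suffix for shared sequence, and without such probe sets the log2 differences were at least 3.498 and 2.77, against 5.31 and 4.83 with it. Gria3 and Gria4, measured on all 4 arrays, differed by 3.09 and 2.78 in knockout cells and by 2.02 and 3.07 in control cells. Gabrb1 was at least 44.6-fold higher in the knockout teratoma than in knockout embryoid bodies and at least 22.9-fold higher in control cells, and Gabrb2 at least 25.8-fold and 16.8-fold. These sizes belong to the brightest probe set: with the mean of probe sets the log2 differences were 1.79 in knockout cells and 1.02 in control cells for Gabrb1, and 2.74 and 2.09 for Gabrb2. The pooled SD between probe sets of a member was 1.05 in knockout cells and 0.87 in control cells. Among the kainate receptor genes 4 of 5 differences were bounds, so their size is open upwards. Grik5, measured on all 4 arrays, differed by 0.71 in knockout cells and 1.09 in control cells. Gabrp was 1.56-fold higher in the teratoma in knockout cells and 2.60-fold in control cells. Most epithelial markers stood the other way, with 6 of 7 at least 2-fold lower in the teratoma in knockout cells (median -2.25). In control cells 3 of 7 were at least 2-fold lower (median -0.96) and 1, Elf3, was at least 2-fold higher (1.05). Both genotypes shared 11 members at least 2-fold higher in the teratoma. A further 8 passed in knockout cells alone, namely Gabra4, Gabrg1, Gabrg3, Glra3, Glrb, Grik1, Grik3 and Grin2d, and 2 in control cells alone, Gabrp and Grik5. Among all 2878 genes at least 2-fold higher in the teratoma in either genotype, 27.1% passed in knockout cells alone and 10.8% in control cells alone. The members in this count depend on the floor: with it at the 25th percentile, or with none, 17 members were shared, 3 passed in knockout cells alone (Gabrg3, Glra3 and Grin2d) and 2 in control cells alone. With the mean of probe sets, 8 were shared and 2 stood alone in each genotype. Glrb was then shared: its other probe set gave a log2 difference of at least 1.74 in control cells. Whether the change differs between genotypes was not tested.

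The values behind these calls show how far each member stood from background. Gabra3 read 7.35 in the knockout teratoma against 3.33 in knockout embryoid bodies, and 6.77 in the control teratoma against 3.94 in control embryoid bodies. Gabra5 read 6.76 against 3.66 in knockout cells and 5.85 against 3.15 in control cells. Both were well above the floor in each teratoma and below it in each embryoid body. Glra2, the glycine receptor subunit of immature neurons, read 7.81 in the knockout teratoma against 2.84 in knockout embryoid bodies, and 7.09 in the control teratoma against 2.82 in control embryoid bodies. It was at least 8.44-fold higher in the teratoma in knockout cells and at least 5.22-fold in control cells. Gria2 had 10.05 in the knockout teratoma against 3.64 in knockout embryoid bodies, and 9.54 in the control teratoma against 3.67 in control embryoid bodies, so the tissues lay far apart in either genotype. Gria3 gave 8.10 against 5.01 in knockout cells and 7.35 against 5.33 in control cells, and Gria4 gave 8.19 against 5.41 and 7.98 against 4.91. These 2 AMPA receptor genes were already above the floor on day 5 with the probe sets used. The other Gria4 probe sets lay below it in both embryoid bodies. Grin2b, of embryonic NMDA receptors, read 7.05 in the knockout teratoma against 4.05 in knockout embryoid bodies, and 6.74 in the control teratoma against 4.28 in control embryoid bodies. Grin2d read 6.60 against 5.30 in knockout cells and 6.10 against 5.51 in control cells, above the floor on every array. Gabrg3 read 6.63 against 4.72 in knockout cells and 5.92 against 5.42 in control cells. The kainate receptor genes Grik1 and Grik3 read 5.99 and 6.11 in the knockout teratoma, against 5.14 and 5.36 in the control teratoma, where they stood close above the floor. Both lay below it in embryoid bodies.

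**Figure D4:**
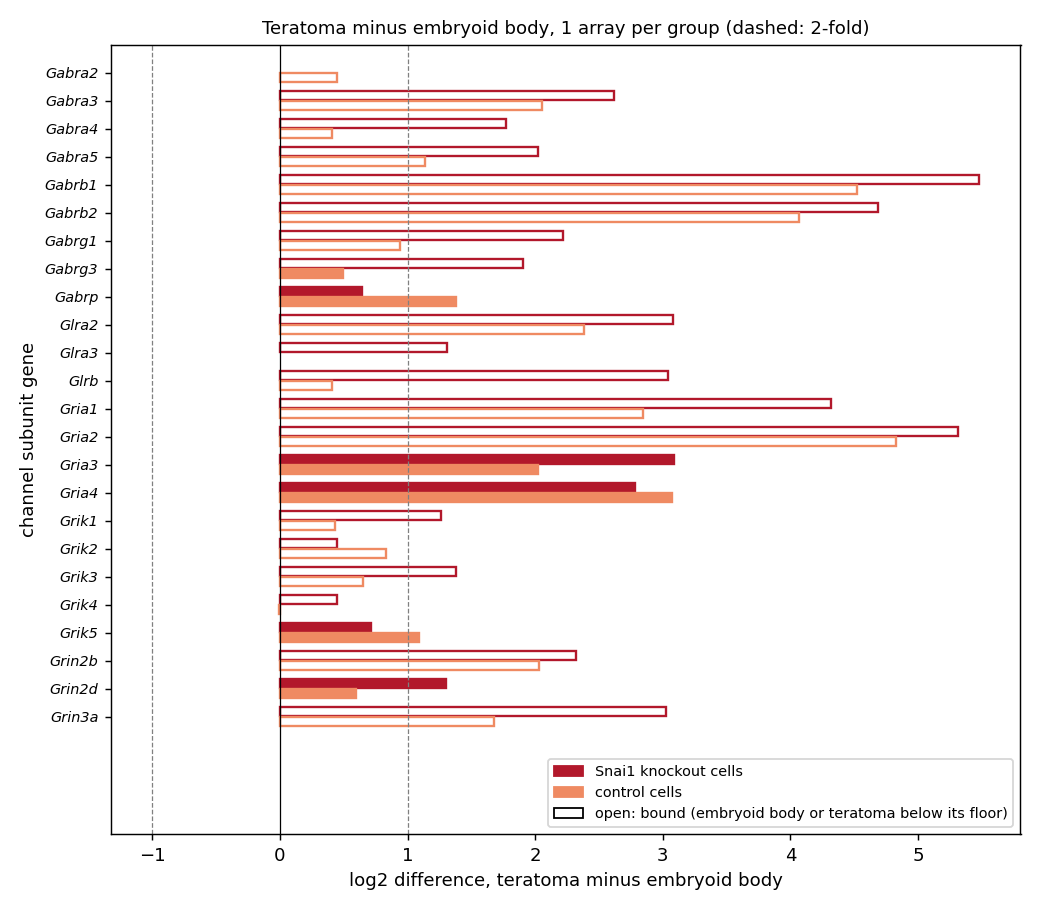
Log2 difference, teratoma minus embryoid body (x axis), for each measured member (y axis) in Snai1 knockout cells (dark red) and control cells (orange), with bounds as open bars and 2-fold as dashed lines. All bars but the one of Grik4 in control cells lie above 0, and most are bounds because the embryoid body lay below its floor.

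The genes that make, move and anchor the same transmitters were read from lists beside the channels. Of 18 measured genes for synthesis and transport of GABA, glycine and glutamate, 8 were at least 2-fold higher in the knockout teratoma and 0 lower, with a median of 0.93. They were the GABA-synthesising enzyme genes Gad1 (1.18) and Gad2 (2.42), the GABA-degrading enzyme gene Abat (1.26), the vesicular carriers Slc32a1 (1.03) for GABA and glycine and Slc17a6 (1.08) for glutamate, and the uptake carriers Slc6a11 (1.13), Slc1a2 (1.20) and Slc1a6 (1.57). Slc12a5, the chloride exporter that makes GABA inhibitory, differed by 0.74, and Slc12a2, the chloride importer of immature neurons, by -0.47. Over all genes measured, 3.25% were at least 2-fold higher in the knockout teratoma and 1.07% lower. In embryoid bodies 0 of 13 measured genes of this list passed 2-fold in either direction. That lies near the shares over all genes there, 2.18% higher and 3.98% lower in the knockout.

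Scaffold and auxiliary genes differed less in teratomas, with 4 of 34 measured at least 2-fold higher, 0 lower and a median of 0.40. The 4 were the kainate receptor partner Neto1 (1.54), the adhesion gene Nlgn1 (2.84-fold), the AMPA receptor-clustering pentraxin Nptx1 (1.23) and Nsf (1.05), a fusion ATPase that binds AMPA receptors. Gphn, which encodes gephyrin, read 9.27 in the knockout teratoma and 9.04 in the control teratoma, a difference of 0.23. None of 7 measured metabotropic and delta receptor genes reached 2-fold, although all 7 lay above 0 with a median of 0.45. Nicotinic and serotonin channel subunits, relatives of the GABA-A and glycine subunits, had 0 of 5 called and a median of 0.51. Of all genes measured, 3.25% were called higher and 1.07% lower, so 0 calls in lists this short lie near those shares. In embryoid bodies the pentraxin Nptx2 was the only called gene of these 3 lists, at 9.31 in knockout against 7.52 in control embryoid bodies.

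Markers of neurons and other cells were read in the same tumours, where 3.25% of all genes measured were called higher in the knockout and 1.07% lower. Of 14 neuronal markers, 4 were at least 2-fold higher in the knockout teratoma: the synaptic vesicle genes Syp (1.86) and Syt1 (1.05), the nuclear marker Rbfox3 (1.40) and the fusion protein gene Snap25 (1.33). The list's median was 0.26, and others of the list did not reach 2-fold: Tubb3 differed by 0.15, Map2 by 0.09, the neurofilament genes Nefl and Nefm by 0.62 and 0.11, and Dcx by -0.70. The log2 of the list's summed unlogged levels was 14.95 in the knockout teratoma and 14.60 in the control teratoma, and summed levels below are of this kind. Astrocyte markers had 3 of 7 called (Gfap, S100b and Slc1a2, the last of which is also in the transport list) and a median of 0.89, with summed levels of 13.83 in the knockout and 13.05 in the control. Of 7 oligodendrocyte markers, Mobp alone was called (2.18), with summed levels of 13.10 and 12.71 in knockout and control. Neural progenitor markers had 0 of 8 called, a median of -0.18 and summed levels of 13.29 and 13.38. In embryoid bodies 1 of 9 measured neuronal markers was called, Elavl4, at 6.10 in knockout against 4.81 in control embryoid bodies. Sox3 of the progenitor list was also higher there (1.16) and Tyrobp of the leukocyte list lower (-1.06). Over all genes measured in embryoid bodies, 2.18% were called higher in the knockout and 3.98% lower. Leukocyte markers had 5 of 8 called: Ptprc (2.12), Ctss (2.44), Cd68 (1.10), Ighm (6.14) and Jchain (at least 3.02). The Ighm difference was the largest of all genes measured between the teratomas. The leukocyte list had a median of 1.61 and summed levels of 12.76 in the knockout teratoma and 11.12 in the control teratoma. Pluripotent cell markers had 4 of 6 called (Pou5f1, Nanog, Tdgf1 and Dppa4) and a median of 1.42, with summed levels of 11.70 and 11.14. Skeletal muscle markers had 2 of 6 lower, Myh3 (-2.09) and Myog (-1.37), a median of 0.12 and summed levels of 12.58 and 12.14. The part of cellular makeup and RNA integrity in the channel differences was not tested.

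**Figure D5:**
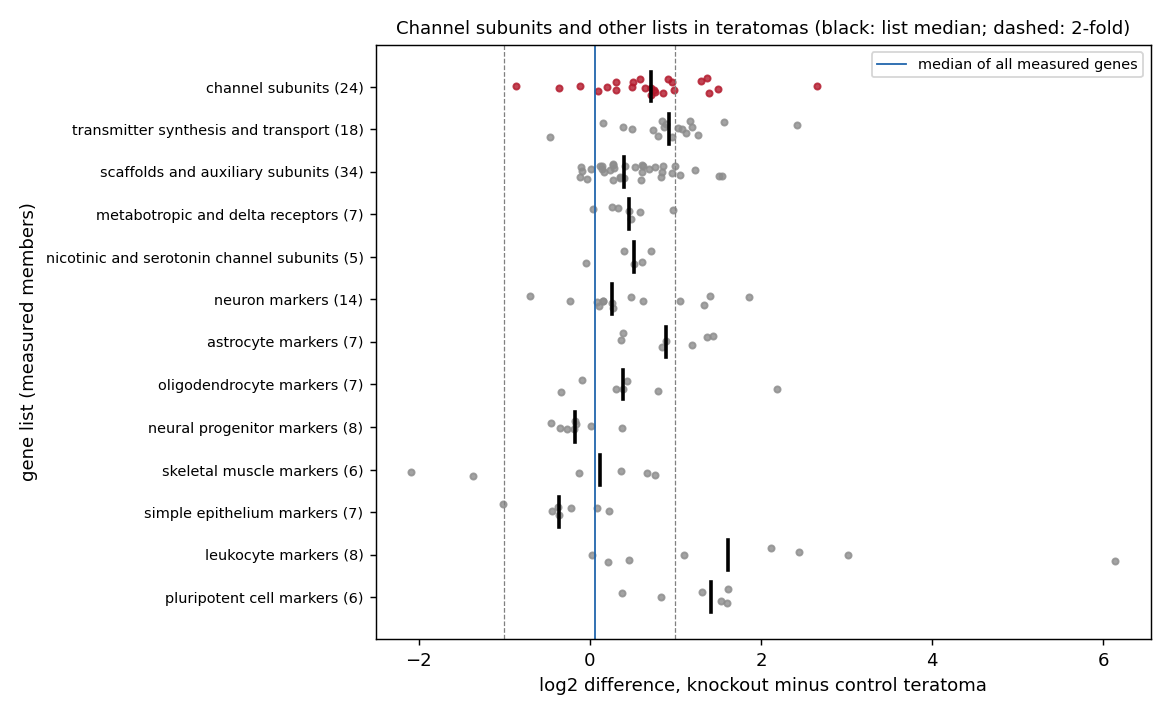
Log2 difference, knockout minus control teratoma (x axis), for each measured gene of the channel subunits (red) and of the other lists (grey), with the list median in black, the median of all measured genes in blue and 2-fold dashed. The channel median is 0.72, that of neuronal markers 0.26 and that of astrocyte markers 0.89. Over the other lists the medians run from -0.37 for simple epithelium to 1.61 for leukocyte markers.

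Several members are neighbours in the genome. In the RefSeq gene table (GRCm38.p6) Gabrg1 is next to Gabra2, Gabra4 next to Gabrb1, Gabra5 next to Gabrg3, and Glrb next to Gria2, with no other protein-coding gene between. Values of neighbours were set side by side for knockout against control teratomas. Gabrg1 was 2.46-fold higher in the knockout while Gabra2 had a bound of -0.12, and Glrb differed by 2.65 while Gria2 differed by 0.51. Gabra4 and Gabrb1, at 1.39 and 0.98, and Gabra5 and Gabrg3, at 0.91 and 0.72, were closer.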

How the data were processed

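The authors deposited log2 expression values for 45101 probe sets on 4 Affymetrix mouse arrays. Per the submitters' processing notes the tools were affy and RMA, which corrects background, normalizes by quantiles and summarises probes. The version, the chip definition and any joint normalization were not given in the sources used here. After 64 control probe sets, 34945 of 45037 probe sets named 1 gene in the platform annotation, 932 several and 9160 none. A gene (18193 in all) was read from its brightest probe set on average across arrays. Per the labels' protocols 250 ng of total RNA was labelled per sample. Floors stand at the 50th percentile of non-control probe sets, and a gene was called at 2-fold. Named genes are all members of the rule and, of each other list, for knockout against control, the called genes (up to 4 with the largest difference were also allowed). Slc12a5, Slc12a2, Gphn, Tubb3, Map2, Nefl, Nefm and Dcx were named after their values were seen. Members and lists were chosen with earlier results of these data known. The code was tested on simulated data. Python 3.11.15, pandas 2.3.3 and numpy 2.4.6 were used. Precision is limited by 1 array per group. Alternatives covered floor, probe set, scaling and threshold. Planned protein stretches were not analysed here.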

Additional observations from a re-analysis of the deposited data

Results flagged for a closer look

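Of the 7 members measured in both tissues, 4 had knockout minus control differences of opposite sign. The share of all genes with opposite signs was not counted, so this number is not read as a trait of the members. Gabrg3 differed by 0.72 in teratomas and had a bound of -0.69 in embryoid bodies. Gria3 differed by 0.75 in teratomas and by -0.31 in embryoid bodies, Grin2d by 0.50 and by -0.21, and Grik4 had bounds of 0.095 and -0.35. None of these values reaches 2-fold, each rests on 1 array per group, and the difference between tissues was not tested. The Gria3 difference in embryoid bodies was -0.01 with its other probe set.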

How the results depend on the processing

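No paired analysis was possible because each group had 1 array and no test was run. With the floor at the 65th percentile, 3 of 18 measured members were at least 2-fold higher in the knockout teratoma, against 2.69% of all genes. In teratomas against embryoid bodies, 10 of 17 were higher in knockout cells and 7 of 11 in control cells, against 17.3% and 13.2% of all genes. With the mean of probe sets, 2 of 20 measured members were higher and 1, Gabrp, lower in the knockout teratoma. Of all genes, 2.41% were then higher there and 0.778% lower. Between tissues in knockout cells, 10 of 20 members and 15.6% of all genes were then higher in the teratoma. Quantile normalization also put 1 of 24, Gabrp, lower in the knockout teratoma, where 1.69% of all genes were lower. Without a floor, 1 of 35 members, Gria1, was at least 2-fold lower in knockout embryoid bodies, with both arrays below the floor otherwise used. Of all genes, 3.11% were lower there in that setting. At 1.5-fold, 14 of 24 measured members were higher and 1 lower in the knockout teratoma, where 10.3% of all genes were higher and 5.05% lower. In knockout embryoid bodies 1 of 7 was higher and 1 lower, where 6.92% of all genes were higher and 8.34% lower. At 3-fold, 1 of 24 members, Glrb, was higher in the knockout teratoma, where 0.68% of all genes were higher and 0.221% lower. The 5 members called in teratomas kept their sign under each floor, probe set and scaling setting. So did the members called between tissues where a value was left, but at the 65th percentile floor 3 of 19 in knockout cells (Glra3, Grik1 and Grik3) and 2 of 13 in control cells (Gabra5 and Grin3a) had none. With the mean of probe sets Gabrg3, Glra3 and Grik1 had none in knockout cells, nor did Grik1 without shared-suffix probe sets. Most of these differences are bounds, whose sign largely follows from which array is above the floor. Over all genes, the 65th percentile floor gave 262 higher and 76 lower in the knockout teratoma (main setting 397 and 131) and 169 and 310 in knockout embryoid bodies (268 and 489). Quantile normalization gave 374 and 206 in the knockout teratoma, and the mean of probe sets 266 and 86. The causes were not tested. Values near background, where most members lay in embryoid bodies, limit what can be seen there.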
